A study of Homo sapiens with 28 samples.

Results

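The 10 genes described here encode chaperones, folding enzymes and regulators of the endoplasmic reticulum (ER): HSPA5, HSP90B1, DNAJB9, DNAJC3, SDF2L1, PDIA4, PDIA6, CALR, HERPUD1 and XBP1. They were picked by gene symbol as a named pathway set, and all 10 were found among the 13481, 12068 and 12384 genes of 3 expression tables. All 10 passed the filter on low values in each table. RNA was measured in NCI-H2009 and NCI-H596, human non-small-cell lung cancer lines that the labels give as adenocarcinoma and wild type. H2009 cells carrying the siRNA against RUVBL1 (siBL1) were set against cells with a non-targeting siRNA (siNT) at 2.5 days, and H596 cells at 3 days. In both lines, cells given 100 nM of compound B or compound C for 24 h were set against untreated cells, for which the labels name no vehicle. Each of the 10 groups has 2 libraries. RUVBL1 is an ATPase that works with RUVBL2 in the assembly of large protein complexes, and the compounds are known here only by these letters.

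The ER folds proteins that enter the secretory pathway. When unfolded proteins build up there, the sensors IRE1 (gene ERN1), PERK (EIF2AK3) and ATF6 start the unfolded protein response. IRE1 splices the XBP1 mRNA, ATF6 is cut to release a transcription factor, and PERK slows translation and favours the production of ATF4. Together these branches raise the transcription of ER chaperones and of genes that clear misfolded proteins, and they are often active in cancer cells.

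The values are FPKM per gene (fragments scaled to transcript length and to the number mapped in the library), so the depth behind each value is unknown. Differences are given as log2(FPKM + 1) and were tested with limma, with Benjamini-Hochberg adjustment over all genes at 0.05. Same-numbered libraries shared much of their variation across groups, so each comparison is given from an unpaired fit and from a paired fit, which takes the replicate number as a block. SEs are from the unpaired fit unless stated, and the difference itself is the same in both. Summed FPKM per library ranged from 398195 to 749060, and the 10 genes together made up 0.161% to 0.427% of it. RUVBL1 stood at 1.75 and 1.11 FPKM with siBL1 against 87.8 and 64.3 FPKM with siNT in H2009, and at 2.26 and 2.52 FPKM with siBL1 against 111.9 and 123.4 FPKM with siNT in H596. Of the line markers, NKX2-1, a transcription factor of lung epithelium, lay between 0.330 and 1.04 FPKM in H596 and between 18.7 and 116.6 FPKM in H2009 in the compound table. The squamous keratin KRT5 lay between 880.1 and 1452 FPKM in H596 and between 0.147 and 0.806 FPKM in H2009, which is not the usual picture of an adenocarcinoma for H596. NKX2-1 was itself lower with compound B in H2009, at 22.1 FPKM against 83.6 FPKM in untreated cells (log2 difference -1.83, limma adjusted p = 0.0111). It was the 1 gene that passed in the unpaired fit among 9 lung and squamous epithelial markers with values, of 12 listed, where 5.02% of all genes passed as lower. KRT19 stood at -1.27 (limma adjusted p = 0.0956 unpaired and 0.000396 paired). The summed FPKM of the 9 markers was 3271 to 4346 with compound B, 4171 to 5515 with compound C and 3580 to 6054 in untreated H2009 cells. With siBL1 the paired fit passed 4 of 7 of these markers as lower in H2009 and 6 of 8 in H596, and none as higher. Of all genes it passed 27% as lower in H2009 and 26.6% in H596. The part of these markers in the results that follow was not tested. In bulk RNA, fewer cells with a transcript and less of it per cell cannot be told apart.

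Genes of the unfolded protein response are classically recognised by the ER stress response element, bound by NF-Y at CCAAT and by ATF6 or XBP1 at CCACG, and by a shorter second form. CCAAT and CCACG with 9 bases of any kind between them (first element), and ATTGG and CCACG with 1 base between them (second element), were searched on both strands of RefSeq promoter windows of GRCh38.p14, from 250 bases before to 50 after each gene start. The first element was present in 27 of 35116 windows (0.0769%) and the second in 19 (0.0541%). Among the 10 genes, 5 held the first element (HSPA5, HSP90B1, PDIA6, CALR and XBP1), 2 held the second (HERPUD1 and SDF2L1), and DNAJB9, DNAJC3 and PDIA4 held neither in this window. The elements share the CCACG part, and no member held both. The sequences below are shown because they set the genes with a full element beside DNAJB9 and DNAJC3, the members with the highest differences for compound B in H2009. They are written along the gene's strand, with the NF-Y part and the CCACG part in capitals. For the first element these read CCAAT and CCACG, or CGTGG and ATTGG where the element runs the opposite way. For the second element they read ATTGG and CCACG (HERPUD1), or CGTGG and CCAAT where it runs the opposite way (SDF2L1).
HSPA5, chr9:125241371-125241429, minus strand: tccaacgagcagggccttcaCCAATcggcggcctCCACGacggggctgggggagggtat
XBP1, chr22:28800583-28800641, minus strand: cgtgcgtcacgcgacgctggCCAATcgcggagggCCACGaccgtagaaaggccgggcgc
PDIA6, chr2:10812833-10812891, minus strand: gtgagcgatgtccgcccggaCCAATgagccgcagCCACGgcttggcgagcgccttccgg
HSP90B1 first match, chr12:103930196-103930254, plus strand: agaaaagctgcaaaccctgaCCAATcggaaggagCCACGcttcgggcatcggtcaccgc
HSP90B1 second match, chr12:103930301-103930359, plus strand: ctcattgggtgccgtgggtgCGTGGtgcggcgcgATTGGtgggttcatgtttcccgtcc
CALR, chr19:12938364-12938422, plus strand: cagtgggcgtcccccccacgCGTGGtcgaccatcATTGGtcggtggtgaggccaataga
HERPUD1, chr16:56932005-56932055, plus strand: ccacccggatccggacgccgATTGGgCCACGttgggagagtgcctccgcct
SDF2L1, chr22:21642094-21642144, plus strand: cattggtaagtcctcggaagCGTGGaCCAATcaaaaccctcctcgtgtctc

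The start-proximal 130 bases of DNAJB9 and DNAJC3 are given in the same way. Capitals mark single CCAAT and CCACG parts or their reverse complements, none of which had the spacing of either element.
DNAJB9, chr7:108569744-108569873, plus strand: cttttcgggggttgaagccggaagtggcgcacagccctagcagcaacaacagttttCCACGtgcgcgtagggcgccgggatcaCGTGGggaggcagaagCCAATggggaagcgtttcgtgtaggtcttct
DNAJC3, chr13:95677009-95677138, plus strand: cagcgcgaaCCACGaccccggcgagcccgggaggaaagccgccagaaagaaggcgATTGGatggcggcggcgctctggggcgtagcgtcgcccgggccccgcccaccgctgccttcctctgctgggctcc
In the windows of the genes above, the element began 66 bases before the start in HSPA5, 52 in XBP1, 86 in PDIA6, 194 and 89 in HSP90B1, and 225 in CALR. XBP1 and PDIA6 each had 2 windows for different starts, and only 1 window of each held the element. The second element began 117 bases before the start in HERPUD1 and 188 in SDF2L1. Of 84 other pathway genes with a window, 4 held a match, namely CANX, CRELD2 and ERO1LB with the first element and HYOU1 with the second. The 84 include RPN1, for which the windows of another gene, PSMD2, were searched through a shared alias and held no match. RPN1 itself was thus not searched. A match is a match of letters, and its absence says only that these letters do not occur in the window.

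The untreated lines give the starting levels. The 10 genes spanned a wide range, with the abundant chaperones CALR and HSP90B1 at the top in both lines and DNAJB9 at or near the bottom. In untreated H2009 the order ran from CALR (372.9 FPKM) and HSP90B1 (338.5 FPKM), whose libraries overlapped, through HSPA5 (149.1 FPKM), PDIA6 (119.8 FPKM) and PDIA4 (80.8 FPKM) to XBP1 (29.9 FPKM) and SDF2L1 (24.7 FPKM), which again overlapped. DNAJC3 (15.3 FPKM) and HERPUD1 (15.001 FPKM) could not be ordered beyond their spread, and DNAJB9 was lowest at 6.36 FPKM. Untreated H596 kept CALR (399.2 FPKM) and HSP90B1 (378.8 FPKM) on top, again with overlap. Below them stood HSPA5 (245.1 FPKM) and PDIA6 (238.8 FPKM), whose libraries overlapped too, then PDIA4 (68.1 FPKM) and XBP1 (33.1 FPKM). HERPUD1 (20.7 FPKM) and DNAJC3 (18.2 FPKM) followed, and SDF2L1 (9.31 FPKM) and DNAJB9 (8.72 FPKM) were lowest. Neither of these last pairs could be ordered beyond its spread.

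Untreated H596 cells differed from untreated H2009 cells in several of these genes. PDIA6, a protein disulfide isomerase, had 228.2 and 249.5 FPKM in H596 against 107.0 and 132.5 FPKM in H2009, a log2 difference of 1.00 (SE 0.21, n = 2, limma adjusted p = 0.00433). HSPA5, the ER Hsp70 also called BiP and a binding partner of all 3 sensors, had 256.3 and 234.0 FPKM in H596 against 148.8 and 149.4 FPKM in H2009 (log2 difference 0.71, SE 0.19, limma adjusted p = 0.0136). SDF2L1, a partner of ER J-proteins, went the other way, with 10.7 and 7.96 FPKM in H596 against 31.2 and 18.1 FPKM in H2009 (log2 difference -1.28, SE 0.32, limma adjusted p = 0.0102). For all 3 genes the libraries of the 2 lines did not overlap. Without overlap, 5 of 10 genes lay above and 2 of 10 below, as did 4827 and 4013 of all 12781 genes. PDIA6 still passed without any 1 of the 4 libraries. HSPA5 passed only without H596 replicate 2 among these fits (limma adjusted p = 0.044), and SDF2L1 did not pass without H596 replicate 2 (0.0684) or without H2009 replicate 1 (0.0827). Thus 2 of 10 genes passed as higher in H596, where 24.1% of all genes did, and 1 of 10 as lower, where 19.1% did, shares near the background. In the paired fit DNAJB9 (log2 difference 0.40, adjusted p = 0.0387) and HERPUD1 (0.42, adjusted p = 0.0144) also passed as higher, which makes 4 of 10 against 38% of all genes higher and 1 of 10 against 31.3% lower.

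In H2009 cells with compound B the genes went in opposite directions. The J-domain co-chaperones DNAJB9 and DNAJC3 rose in both fits, while the lectin chaperone CALR and SDF2L1 were lower and passed in the paired fit only. DNAJB9, also called ERdj4, a BiP co-chaperone that represses IRE1, had 14.5 and 14.2 FPKM with compound B, 5.95 and 9.92 FPKM with compound C, and 5.58 and 7.14 FPKM in untreated H2009 cells. Both compound B libraries lay above all 4 others. The log2 difference of compound B from untreated was 1.07 (SE 0.25, n = 2, limma adjusted p = 0.0269). DNAJC3, also called P58IPK, a J-protein known to inhibit PERK and PKR, had 30.8 and 27.2 FPKM with compound B, 16.8 and 14.2 FPKM with compound C, and 13.7 and 16.8 FPKM in untreated cells. Here too the compound B libraries stood apart from all 4 others, with a log2 difference from untreated of 0.89 (SE 0.19, n = 2, limma adjusted p = 0.0169). Both passed with the block as well (adjusted p = 0.000282 for DNAJB9 and 0.000723 for DNAJC3). Without each of the 4 libraries in turn, the unpaired DNAJB9 difference was between 0.91 and 1.22 and no longer passed (limma adjusted p from 0.0691 to 0.149). The DNAJC3 difference was then between 0.75 and 1.03, and it passed only without untreated replicate 2 (limma adjusted p = 0.0458). In an unpaired fit of H2009 alone neither gene passed. With quantile normalization or median centring alone, the unpaired fit did not pass both.

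**Figure D1:**
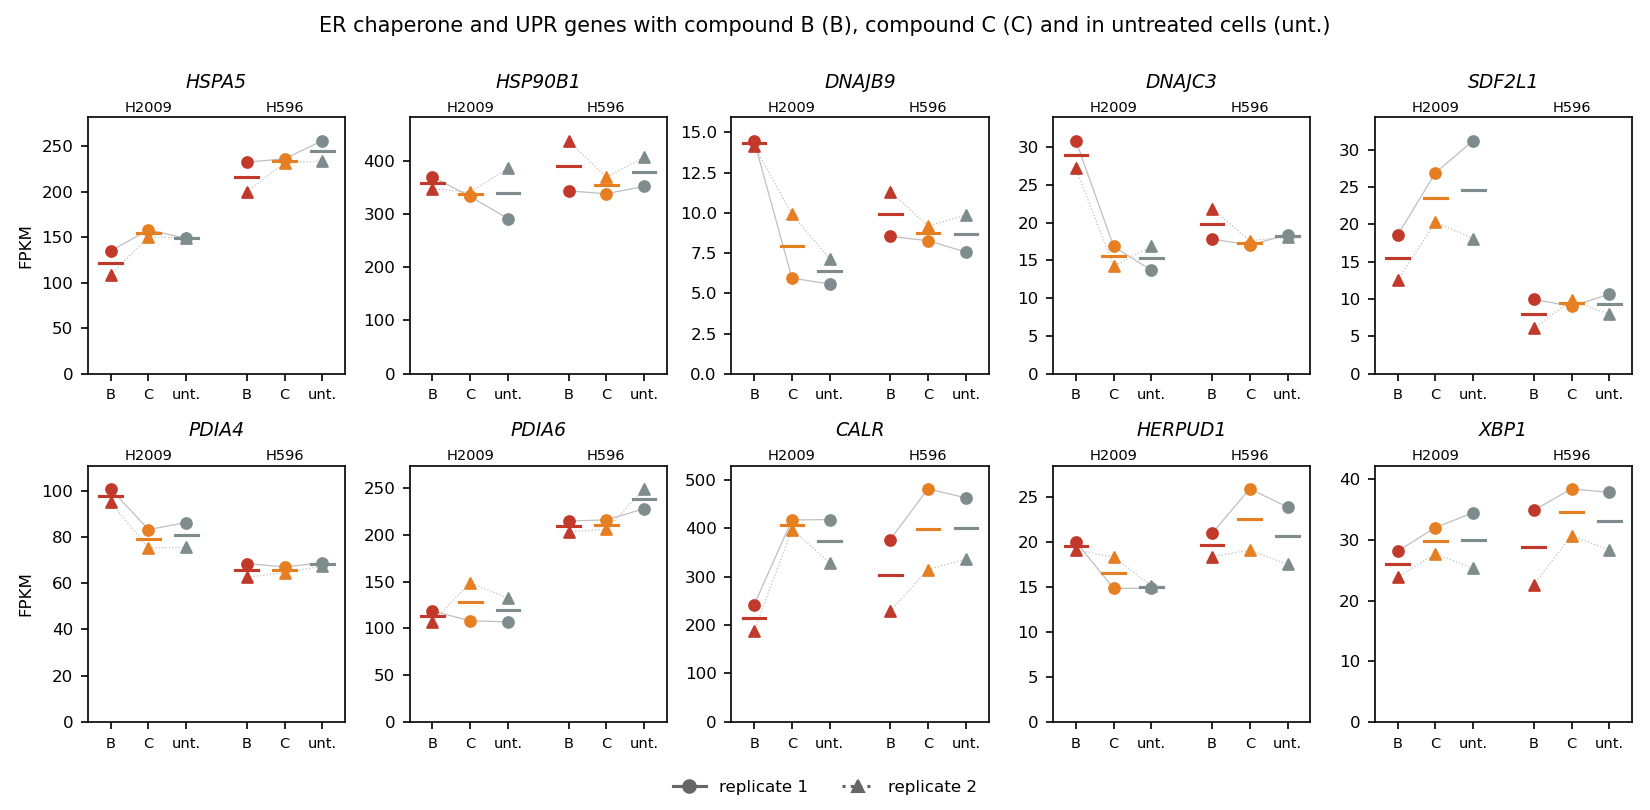
FPKM of each of the 10 genes (vertical axis, from 0) with compound B, compound C and in untreated cells, for H2009 and H596. Circles and triangles are replicates 1 and 2, thin lines join libraries of 1 replicate number, and bars are means of 2 libraries; DNAJB9 and DNAJC3 stand out in H2009 with compound B, at 14.5 and 14.2 FPKM and at 30.8 and 27.2 FPKM.

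CALR, calreticulin, which binds monoglucosylated glycoproteins and calcium in the ER, had 241.5 and 186.9 FPKM with compound B, 416.6 and 396.7 FPKM with compound C, and 417.5 and 328.4 FPKM in untreated H2009 cells. The compound B libraries lay below all others. The log2 difference from untreated was -0.80 (SE 0.32), which missed the unpaired threshold (limma adjusted p = 0.151) and passed the paired one (adjusted p = 0.00238). SDF2L1 had 18.5 and 12.6 FPKM with compound B, 26.9 and 20.3 FPKM with compound C, and 31.2 and 18.1 FPKM in untreated cells. Its compound B and untreated libraries overlapped, and each compound B library was below the untreated library of the same number. The log2 difference was -0.61 (SE 0.32, limma adjusted p = 0.275 unpaired and 0.0129 paired). HERPUD1, an ER membrane protein that takes part in ER-associated degradation, had 20.03 and 19.1 FPKM with compound B against 14.9 and 15.1 FPKM in untreated cells. Both compound B libraries were above both untreated ones, with a log2 difference of 0.36 (SE 0.22, limma adjusted p = 0.342 unpaired and 0.046 paired).

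The other 5 genes passed in neither fit in H2009 cells with compound B. HSPA5, the classical marker of the response, had 134.9 and 108.8 FPKM with compound B against 148.8 and 149.4 FPKM in untreated cells. Both compound B libraries were lower, and the log2 difference was -0.30 (SE 0.19, limma adjusted p = 0.373 unpaired and 0.13 paired, with a paired interval from -0.63 to 0.03). HSP90B1, the ER Hsp90 also called GRP94, differed by 0.10 (SE 0.22), the isomerase PDIA4 by 0.28 (SE 0.17), PDIA6 by -0.08 (SE 0.21) and XBP1 by -0.18 (SE 0.27). An FPKM per gene counts spliced and unspliced XBP1 mRNA together, so the XBP1 value carries nothing on splicing by IRE1. In all, 2 of 10 genes passed as higher in the unpaired fit, where 6.36% of all genes did, and 0 as lower, where 5.02% did. With the block 3 of 10 passed as higher and 2 of 10 as lower, against 22.2% and 22.4% of all genes, so these counts lie near the background. Without overlap between the groups, 4 of 10 genes lay above and 2 of 10 below the untreated cells, as did 26.3% and 28.1% of all genes. The median difference of the 10 genes was 0.01, and that of all genes was -0.01. With quantile normalization the median of the 10 genes was 0.23 and that of all genes -0.01, and with median centring they were -0.03 and -0.04. Of the 7 genes with an element shown above, none passed as higher in the unpaired fit, whereas DNAJB9 and DNAJC3, which passed, held neither element in the window searched. HERPUD1, with the second element, passed as higher in the paired fit, and PDIA4, with neither element, passed in neither fit. Outside the set, ERO1LB, with the first element, passed as higher in the unpaired fit (2.198), and CANX, CRELD2 and HYOU1, each with an element, did not. A link between the elements and the differences was not tested.

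In H596 cells the same compound moved none of the 10 genes past the threshold in either fit. Across all genes 0% passed in the unpaired fit, with 735 of 12781 (5.75%) at an unadjusted p under 0.05. With the block 3.79% passed as higher and 2.89% as lower. DNAJB9 had 8.54 and 11.3 FPKM with compound B against 7.57 and 9.87 FPKM in untreated H596 cells, a log2 difference of 0.17 (SE 0.25). DNAJC3 had 17.8 and 21.8 FPKM with compound B against 18.4 and 18.1 FPKM in untreated cells (log2 difference 0.11, SE 0.19). The groups overlapped for both. CALR, at 376.4 and 228.6 FPKM with compound B against 462.2 and 336.2 FPKM in untreated cells, had the lowest difference of the 10, -0.43 (SE 0.32, paired limma adjusted p = 0.148). HSPA5, at 232.8 and 200.1 FPKM against 256.3 and 234.0 FPKM, and PDIA6, at 215.0 and 203.4 FPKM against 228.2 and 249.5 FPKM, were below the untreated cells in both libraries, by -0.18 and -0.19 on the log2 scale. These were 2 of 10 genes below and 0 of 10 above without overlap, against 15.2% and 12.8% of all genes. The remaining 5 genes lay between -0.21 and 0.04.

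The difference between the lines was tested as the compound B effect in H596 minus that in H2009. It was -0.90 for DNAJB9 (SE 0.36) and -0.78 for DNAJC3 (SE 0.27). Neither passed in the unpaired fit (limma adjusted p = 0.474 and 0.348), where 0.329% of all genes passed as lower. Both passed in the paired fit (limma adjusted p = 0.0204 and 0.0317), where 8.19% of all genes did. For CALR the line difference was 0.37 with a 95% interval from -0.65 to 1.39 in the unpaired fit, and 0 of the 10 genes passed as higher in either fit, against 0.125% of all genes unpaired and 6.11% paired.

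Compound C, matched to compound B in dose and duration, moved none of the 10 genes past the threshold in either line or fit. In H2009 its differences from untreated cells lay between -0.03 and 0.25, with DNAJB9 the highest at 0.25 (SE 0.25), while 0.00782% of all genes passed without the block and 0.0156% with it, with 9 (0.0704%) at an unadjusted p under 0.05. In H596 they lay between -0.18 for PDIA6 and 0.12 for HERPUD1, and 0% of all genes passed either fit, with 20 (0.156%) at an unadjusted p under 0.05. The untreated libraries are shared by the compound B and compound C comparisons.

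Set directly against each other in H2009 cells, the compounds differed most in DNAJC3, DNAJB9 and CALR. DNAJC3 was higher with compound B than with compound C by 0.86 (SE 0.19, limma adjusted p = 0.0195), which alone of the 10 genes passed the unpaired fit, where 6.16% of all genes passed as higher and 5.28% as lower. Without either compound B library, or without compound C replicate 2, DNAJC3 did not pass (limma adjusted p from 0.0691 to 0.149). DNAJB9 was higher by 0.82 (SE 0.25, limma adjusted p = 0.0705 unpaired and 0.00156 paired). Its difference was 0.49 without compound C replicate 1 (limma adjusted p = 0.233) and 1.14 without compound C replicate 2 (limma adjusted p = 0.0427). CALR was lower with compound B (log2 difference -0.93, SE 0.32, limma adjusted p = 0.0966 unpaired and 0.00092 paired). SDF2L1 stood at -0.58 (SE 0.32, paired limma adjusted p = 0.0159). The paired fit thus passed 2 of 10 as higher and 2 of 10 as lower, near the 21.6% and 24% of all genes. HSPA5 did not pass, at -0.35 with an unpaired interval from -0.78 to 0.08. In H596 cells none passed in either fit, and the differences ran from -0.41 for CALR (95% interval -1.13 to 0.32) to 0.18 for DNAJC3 (-0.25 to 0.60). Across all genes 0.00782% passed there without the block, with 4.69% at an unadjusted p under 0.05, and 4.66% with it. These intervals do not show that the compounds act alike in H596.

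Knockdown of RUVBL1 in H2009 cells likewise went with differences in both directions. In the unpaired fit 0 of 10 genes passed and 0% of all genes did, with 532 of 11223 (4.74%) at an unadjusted p under 0.05, so each call that follows rests on the paired fit. DNAJB9 had 7.24 and 16.9 FPKM with siBL1 against 4.64 and 7.89 FPKM with siNT. The groups overlapped because replicate 2 was higher than replicate 1 in both, and within replicates 1 and 2 the log2 differences were 0.55 and 1.01 (mean 0.78, paired limma adjusted p = 0.00344). DNAJC3 had 25.4 and 39.4 FPKM with siBL1 against 16.9 and 25.1 FPKM with siNT, so both siBL1 libraries were above both siNT ones. Its log2 difference was 0.60 (SE 0.39, paired limma adjusted p = 0.00254).

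Lower with siBL1 in H2009 were the chaperones HSPA5 and CALR and the transcription factor gene XBP1. HSPA5 had 147.5 and 142.9 FPKM with siBL1 against 252.1 and 212.3 FPKM with siNT. The groups did not overlap, and the log2 difference was -0.67 (SE 0.31, paired limma adjusted p = 0.00219). CALR had 278.0 and 110.6 FPKM with siBL1 against 444.5 and 246.3 FPKM with siNT. The groups overlapped, and within replicates 1 and 2 the log2 differences were -0.68 and -1.15 (mean -0.91, SE 0.60, paired limma adjusted p = 0.00136). XBP1 had 28.0 and 14.9 FPKM with siBL1 against 38.3 and 23.0 FPKM with siNT (log2 difference -0.52, SE 0.46, paired limma adjusted p = 0.00543), again with overlap. In the paired fit 2 of 10 genes passed as higher and 3 of 10 as lower, against 15.4% and 27% of all genes, so both counts lie near the background. The groups did not overlap for 1 of 10 genes above (DNAJC3) and 2 of 10 below (HSPA5 and PDIA6), against 12.1% and 18.9% of all genes. PDIA6 differed by -0.13, and by 0.01 with quantile normalization. The other 5 genes did not pass. SDF2L1, at 3.07 and 1.26 FPKM against 4.06 and 1.85 FPKM, differed by -0.32 (paired limma adjusted p = 0.0701), and PDIA6, HSP90B1, PDIA4 and HERPUD1 lay between -0.13 and 0.06.

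**Figure D2:**
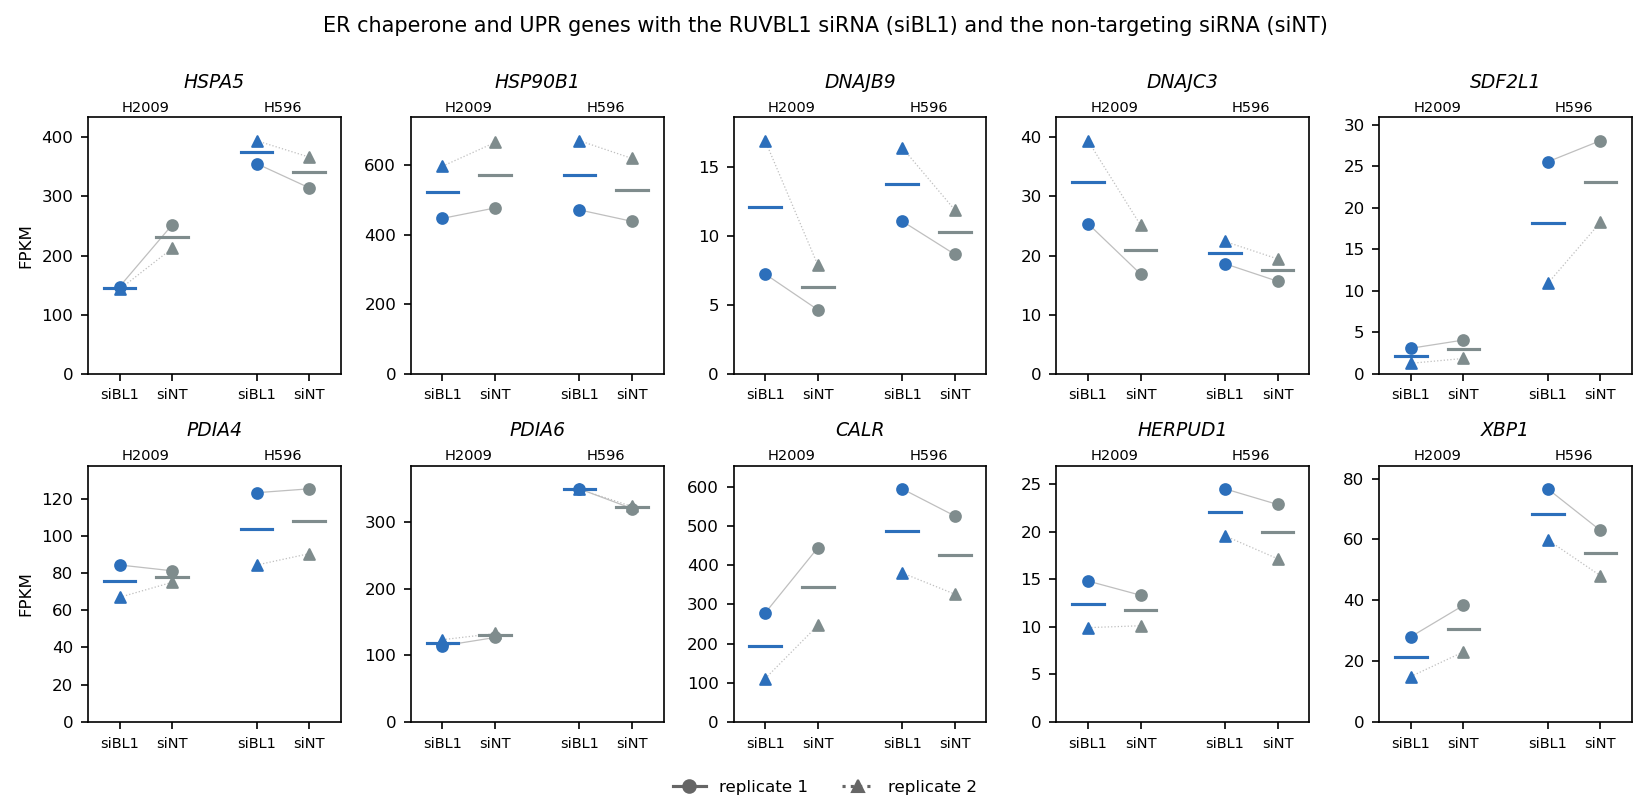
FPKM of each of the 10 genes (vertical axis, from 0) with the RUVBL1 siRNA (siBL1) and the non-targeting siRNA (siNT) in H2009 and H596. Circles and triangles are replicates 1 and 2 joined by replicate number, and bars are means of 2 libraries; HSPA5 is lower with siBL1 in H2009 (147.5 and 142.9 FPKM against 252.1 and 212.3 FPKM), whereas in H596 most lines run down a little from siBL1 to siNT.

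In H596 cells knockdown went with small differences that were mostly upward. The paired fit passed 8 of 10 genes as higher and 1 of 10 as lower, against 19.8% and 26.6% of all genes. In the unpaired fit 0 of 10 passed and 0% of all genes, with 137 (1.14%) at an unadjusted p under 0.05. DNAJB9 had 11.1 and 16.4 FPKM with siBL1 against 8.66 and 11.9 FPKM with siNT (log2 difference 0.38, SE 0.31, paired limma adjusted p = 0.0012). XBP1 had 76.6 and 59.9 FPKM with siBL1 against 63.0 and 48.1 FPKM with siNT (0.30, SE 0.27, paired limma adjusted p = 0.00105). For both genes the groups overlapped, and each siBL1 library exceeded the siNT library of its own number.

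DNAJC3 in H596 had 18.6 and 22.4 FPKM with siBL1 against 15.6 and 19.4 FPKM with siNT (log2 difference 0.22, paired limma adjusted p = 0.0048), and CALR 594.8 and 380.2 FPKM with siBL1 against 525.6 and 326.0 FPKM with siNT (0.20, paired limma adjusted p = 0.00465). For CALR the unpaired difference was -0.12 without siBL1 replicate 1 and -0.14 without siNT replicate 2. The differences of HSPA5 (0.14), HERPUD1 (0.14), PDIA6 (0.12) and HSP90B1 (0.11) were smaller, with paired adjusted p between 0.0198 and 0.0386. HSP90B1 and HERPUD1 also turned negative in the unpaired fit without 1 library, HSP90B1 at -0.14 without siBL1 replicate 2 or siNT replicate 1, and HERPUD1 at -0.02 without siBL1 replicate 1 and -0.06 without siNT replicate 2. PDIA6, at 349.5 and 349.0 FPKM with siBL1 against 319.9 and 323.1 FPKM with siNT, was the 1 gene of the 10 whose groups did not overlap, as for 9% of all genes above and 8.64% below. SDF2L1 was lower, at 25.6 and 10.9 FPKM with siBL1 against 28.1 and 18.3 FPKM with siNT (-0.41, SE 0.50, paired limma adjusted p = 0.0273), and without siBL1 replicate 2 its unpaired difference was 0.17. PDIA4 did not pass (-0.06). The median of the 10 differences was 0.14, and that of all genes was -0.01, against 0.24 and 0.00 with quantile normalization. The siRNA tables of the 2 lines may have been normalized separately, so the line difference was not tested for the siRNA.

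**Figure D3:**
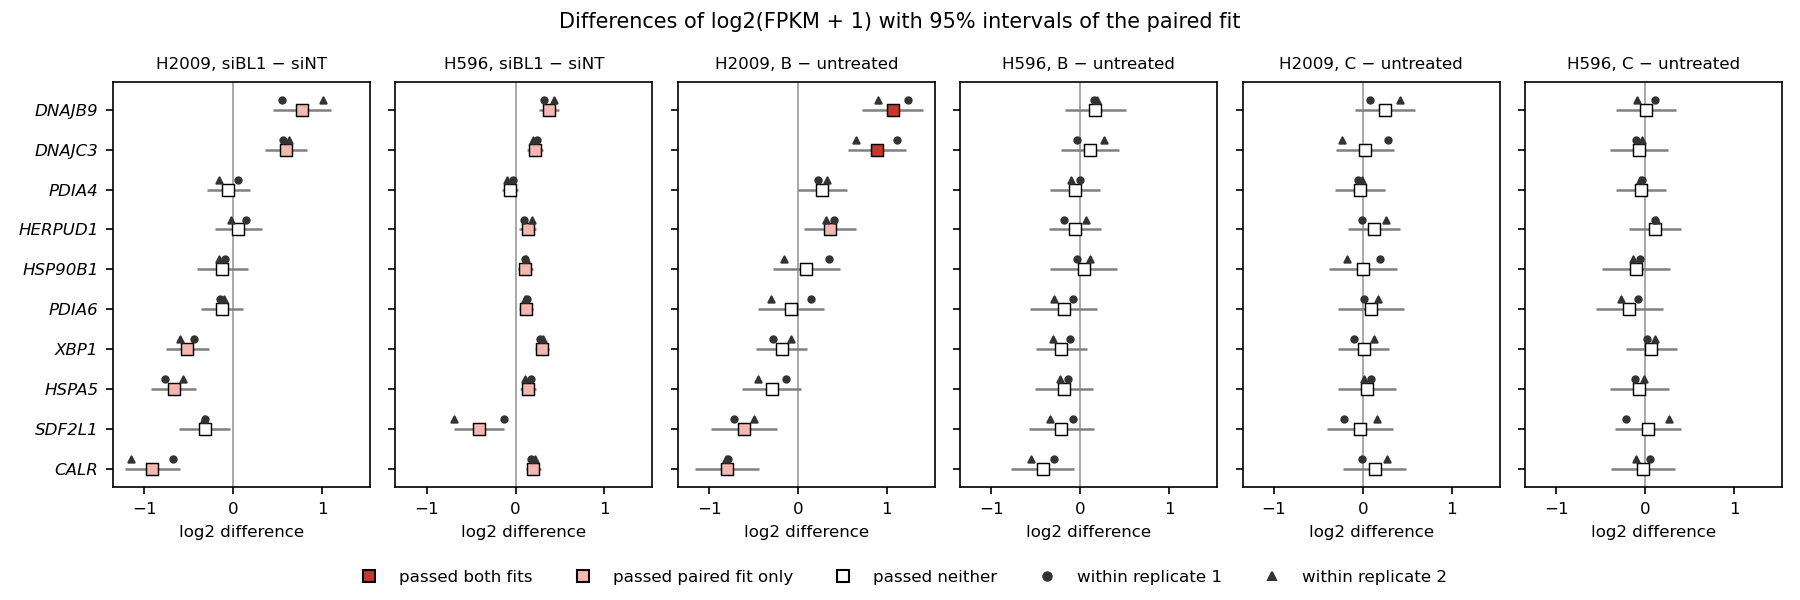
Differences of log2(FPKM + 1) for the 10 genes (horizontal axes) in 6 comparisons, with 95% intervals of the paired fit; dots and triangles are the differences within replicates 1 and 2. Filled squares passed both fits, pale squares the paired fit only and open squares neither: DNAJB9 and DNAJC3 in H2009 with compound B (1.07 and 0.89) are the only values that passed both.

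Across the 4 comparisons of siBL1 with siNT and of compound B with untreated cells, DNAJB9 and DNAJC3 had positive differences in each, 0.78, 0.38, 1.07 and 0.17 for DNAJB9 and 0.60, 0.22, 0.89 and 0.11 for DNAJC3 in the order H2009 siBL1, H596 siBL1, H2009 compound B and H596 compound B. The values for SDF2L1 were negative in each, at -0.32, -0.41, -0.61 and -0.21. In H596 with compound B the groups overlapped for DNAJB9, DNAJC3 and SDF2L1. There DNAJC3 was below the untreated cells in replicate 1 (17.8 against 18.4 FPKM). The share of all genes with the same sign in each of the 4 comparisons was not counted. HSPA5 stood at -0.67, 0.14, -0.30 and -0.18, and CALR at -0.91, 0.20, -0.80 and -0.43, so both were positive with siBL1 in H596 and negative in the other 3. XBP1 and PDIA6 had the same signs as HSPA5 and CALR in these comparisons. For PDIA6 both H2009 signs changed with quantile normalization. Within a line the siRNA and compound experiments share no library, whereas the 2 lines of the compound table were fitted with 1 estimate of spread.

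The replicate number itself moved with these genes. CALR, XBP1 and PDIA4 were higher in replicate 1 than in replicate 2 in 10 of 10 groups, and SDF2L1 in 9 of 10. HSP90B1 and DNAJB9 were lower in replicate 1 in 9 of 10. For CALR the log2 gap ranged from 0.07 to 1.32 and for DNAJB9 from -1.12 to 0.03. The labels do not say what the number stands for, and its part in the results was not tested beyond the block and the values within replicates.

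The other genes of the pathway were counted from fixed lists. For the sensors and the proteases that cut ATF6, 3 of 6 genes passed as higher in H2009 with compound B in the unpaired fit and 0 as lower, with a list median of 0.52, against 6.36% and 5.02% of all genes. ERN1, which encodes IRE1, had 2.80 and 1.98 FPKM with compound B against 0.740 and 0.611 FPKM in untreated cells (log2 difference 1.01, SE 0.17, limma adjusted p = 0.00616). ATF6 had 13.0 and 13.5 FPKM against 7.01 and 7.21 FPKM (0.81, SE 0.16, limma adjusted p = 0.0131), and EIF2AK3, which encodes PERK, had 13.7 and 11.2 FPKM against 5.77 and 7.48 FPKM (0.82, SE 0.20, limma adjusted p = 0.029). For all 3 sensors the groups did not overlap, and all 3 were also higher with compound B than with compound C (limma adjusted p = 0.00486 for ERN1, 0.0117 for ATF6 and 0.018 for EIF2AK3). In H596 with compound B their differences were -0.11 for ERN1, 0.33 for ATF6 and 0.15 for EIF2AK3, and none passed in either fit. The line difference was -1.12 for ERN1 (SE 0.24, limma adjusted p = 0.0946 unpaired and 0.00117 paired).

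Among 14 other disulfide isomerases and oxidases, the unpaired fit passed 2 as higher and 0 as lower, with a median of 0.03, where 6.36% of all genes passed as higher and 5.02% as lower. ERO1LB, an oxidase that reoxidises protein disulfide isomerase, had 6.14 and 4.53 FPKM with compound B against 0.322 and 0.420 FPKM in untreated H2009 cells (log2 difference 2.198, SE 0.23, limma adjusted p = 0.000854). TMX4, a membrane thioredoxin-like protein, averaged 24.6 FPKM with compound B and 6.55 FPKM in untreated cells (1.76, SE 0.20, limma adjusted p = 0.000974). Of 20 genes of ER-associated degradation 1 passed as higher, EDEM3, a mannosidase-like protein that marks glycoproteins for degradation, at 7.22 FPKM with compound B and 3.20 FPKM in untreated cells (0.97, SE 0.27, limma adjusted p = 0.0454). Of 9 genes of glycoprotein folding and retrieval 1 passed, UGGT2, a glucosyltransferase of the folding sensor family, at 19.98 FPKM with compound B and 8.04 FPKM in untreated cells (1.24, SE 0.30, limma adjusted p = 0.0294). None of 14 other ER chaperones (median 0.28) and none of 22 translocon, signal peptidase and oligosaccharyltransferase genes (median -0.18) passed in either direction. The paired fit gave the chaperones 5 higher and 1 lower, the degradation genes 8 higher and 2 lower, and the translocon genes 0 higher and 4 lower, beside backgrounds of 22.2% and 22.4%. It gave the isomerases and oxidases 3 higher and 2 lower, and the glycoprotein folding genes 1 and 1. The 11 PERK-branch genes gave 4 and 5, and the 6 sensor and protease genes 3 and 0.

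**Figure D4:**
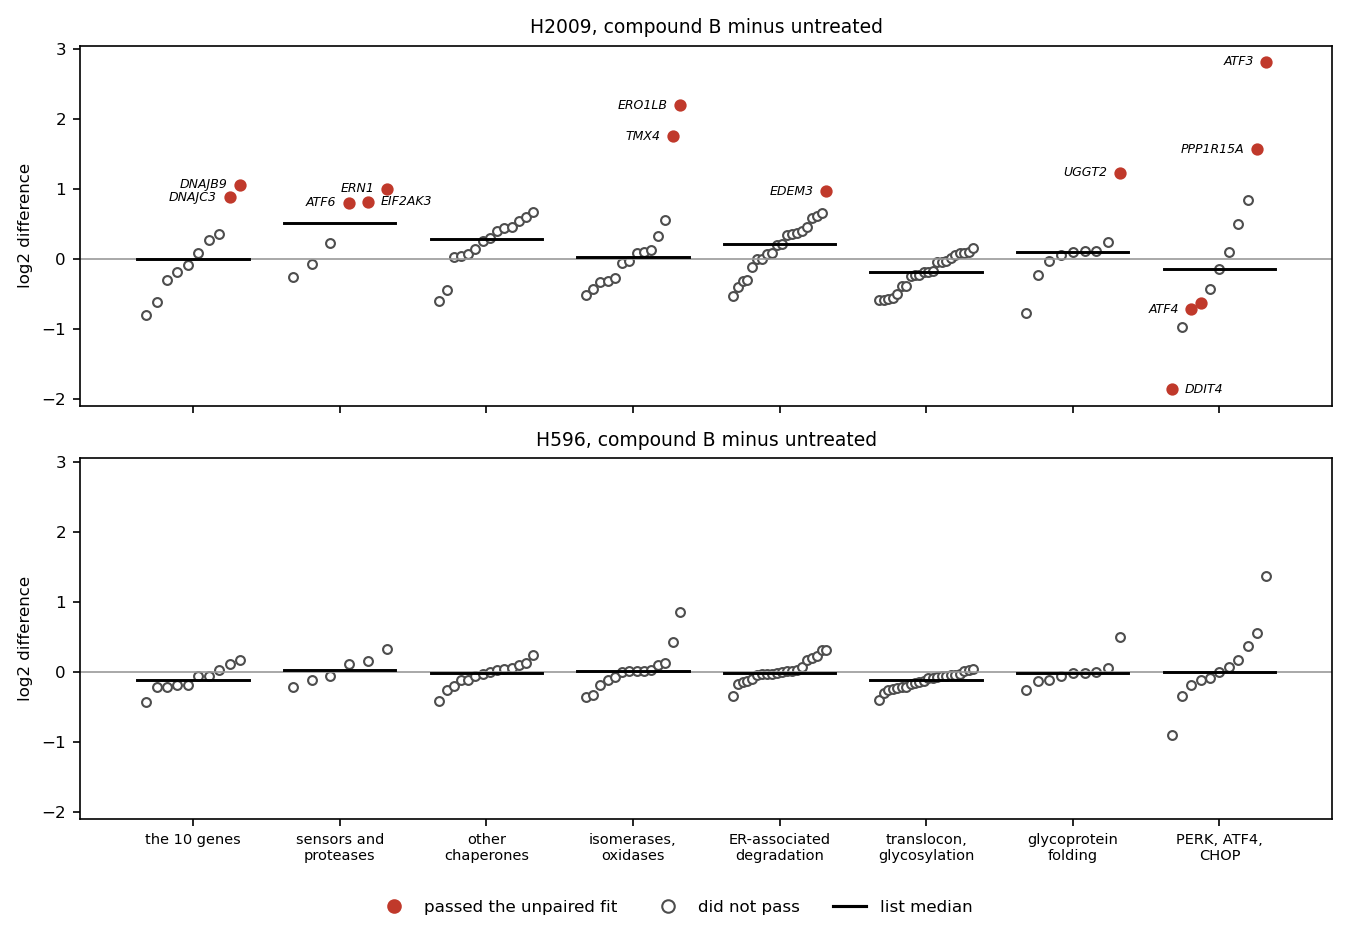
Differences of log2(FPKM + 1), compound B minus untreated (vertical axes), for the tested genes of the 10-gene set and of 7 other pathway lists, ordered by value within each list, in H2009 (top) and H596 (bottom). Filled points passed the unpaired fit and black bars are list medians; in H2009 the filled points include 3 sensors and ATF3 at 2.82, and in H596 no point is filled.

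The genes of the PERK branch were split in H2009 with compound B, with 2 of 11 higher, 3 of 11 lower and a median of -0.14 in the unpaired fit, where 6.36% of all genes passed as higher and 5.02% as lower. ATF4, the transcription factor of the branch, had 158.9 and 148.1 FPKM with compound B against 269.7 and 236.7 FPKM in untreated cells (log2 difference -0.72, SE 0.20, limma adjusted p = 0.0483). These values are of mRNA and do not give the amount of ATF4 protein. DDIT4, a stress-induced inhibitor of mTORC1, averaged 6.61 FPKM with compound B and 26.6 FPKM in untreated cells (-1.86, SE 0.23, limma adjusted p = 0.0015). Higher were ATF3, a stress-induced transcription factor, at 33.2 and 26.1 FPKM against 3.82 and 2.86 FPKM (2.82, SE 0.22, limma adjusted p = 0.000182), and PPP1R15A, also called GADD34, which directs the dephosphorylation of eIF2alpha (1.57, SE 0.39, limma adjusted p = 0.0304). DDIT3, which encodes CHOP, had 32.1 and 30.1 FPKM with compound B against 18.2 and 15.7 FPKM in untreated cells (0.84, SE 0.26, limma adjusted p = 0.0662 unpaired and 0.00742 paired). TRIB3, a pseudokinase induced by ATF4 and CHOP, averaged 5.80 FPKM with compound B and 13.1 FPKM in untreated cells (-0.96, SE 0.51, limma adjusted p = 0.273 unpaired and 0.000549 paired).

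In H596 with compound B the unpaired fit passed no gene of these 7 lists, and the block gave 1 isomerase or oxidase as higher, 2 PERK-branch genes as higher and 1 as lower. With siBL1 the unpaired fit passed none in either line. With the block, for H2009 siBL1, 3 of 6 sensor genes passed as higher and 1 as lower, and 3 of 10 PERK-branch genes as higher and 2 as lower, among them DDIT3 at 1.33 (SE 0.39, paired limma adjusted p = 0.000155), while ATF4 stood at 0.00. Of all genes 15.4% passed there as higher and 27% as lower. Other chaperones gave 2 higher and 4 lower of 14, and other isomerases and oxidases 2 and 2 of 13. Degradation genes gave 7 higher and 4 lower of 19, translocon genes 3 and 5 of 22, and glycoprotein folding genes 2 and 0 of 9. For H596 siBL1 the paired fit passed 5 of 6 sensor genes as higher and 0 as lower, and 7 of 10 PERK-branch genes as higher and 1 as lower, against 19.8% and 26.6% of all genes. There ERN1 was at 0.38, EIF2AK3 at 0.43 and ATF6 at 0.30 on the log2 scale. The remaining lists in H596 siBL1 gave 3 higher and 3 lower of 13 other chaperones, and 4 and 0 of 14 other isomerases and oxidases. Degradation genes there gave 7 higher and 2 lower of 19, translocon genes 3 and 4 of 22, and glycoprotein folding genes 3 and 1 of 9. With compound C no gene of these lists passed in either line or fit.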

How the data were processed

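RNA was measured in 20 libraries of 10 groups with 2 libraries each, sequenced from stranded mRNA libraries per the labels' protocols. The deposited values are FPKM per gene in 3 tables, made by the authors on hg19 with TopHat2 2.0.12, Cufflinks 2.2.1 and CASAVA 1.8.2, per the submitters' processing notes. Values do not give whole reads, so the depth could not be read from them. Of the H2009 siRNA entries, 19 of 12087 carried dates in place of gene names and were left out. The 8 libraries of RUVBL1 or RUVBL2 cDNA were not used here.

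Within each table log2(FPKM + 1) was tested with limma 3.58.1 in R 4.3.3 (group means, variance trend, Benjamini-Hochberg at 0.05 over all genes with a mean FPKM of at least 1, in the compound table in at least 1 line), on 12781 genes for the compounds, 11223 for the H2009 siRNA and 12004 for the H596 siRNA. This scale understates changes of low genes. The fit was tested on simulated data. Whether replicates came from separate cultures is not stated, so p-values may measure technical spread only. The members and lists were chosen with earlier results of these data known. The genes named are all members, up to 3 per list with the lowest adjusted p among those passing for compound B in H2009, and the sensors, ATF4, DDIT3 and TRIB3; CANX, CRELD2 and HYOU1 are named for their promoters only.

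The replicate 1 minus replicate 2 difference over 10300 genes correlated between groups in 45 of 45 pairs (r from 0.475 to 0.979), so the paired fit is given beside the unpaired one where it changes a call, although the labels do not say what the number marks and each comparison has 2 numbers only. Promoter sequences are RefSeq's for GRCh38.p14, matched by symbol for all 10 members. Alternatives were other pseudocounts, filters, centring, quantile normalization, single-line fits, the replicate block and leaving out each replicate.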

Additional observations from a re-analysis of the deposited data

Results flagged for a closer look

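PDIA6 is set apart because its siBL1 and siNT libraries did not overlap in either line and moved in opposite directions in the 2 lines. Both siBL1 libraries lay below both siNT libraries in H2009, with a log2 difference of -0.127, and both siBL1 libraries lay above both siNT libraries in H596, with a log2 difference of 0.119. With quantile normalization the H2009 value was 0.00579 and no longer negative, beside 0.206 in H596, and with median centring the values were -0.0236 and 0.14, so the opposite direction depends on the scaling. The difference between the lines was not tested, since the tables may have been normalized separately. In the paired fit the H596 value passed (limma adjusted p = 0.0271) and the H2009 value did not (limma adjusted p = 0.342). Opposite signs in the lines were not particular to PDIA6. HSPA5 (-0.67 in H2009 and 0.14 in H596), CALR (-0.91 and 0.20) and XBP1 (-0.52 and 0.30) also differed in sign. Each of them passed the paired fit in both lines, although their groups overlapped in H596. DNAJB9 and DNAJC3, which passed that fit in both lines too, were positive in both.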

How the results depend on the processing

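Counts of the 10 genes that passed depended most on the replicate block. With siBL1 in H2009 the block, alone or with quantile normalization or median centring, gave 2 higher and 3 lower in place of 0, and in H596 8 higher and 1 lower. For compound B against untreated in H2009 (2 higher, 0 lower) the block gave 2 lower, also with quantile normalization or median centring, and block with quantile normalization 4 higher. Quantile normalization or median centring alone left 1 higher, and a fit of H2009 alone left 0. Against compound C (1 higher, 0 lower) the block gave 2 higher and 2 lower, with quantile normalization 3 and 2 and with median centring 2 and 2, median centring alone 1 lower, and H2009 alone 0 higher. For the line difference the block fits gave 2 lower in place of 0. For untreated H596 against H2009 the block gave 4 higher in place of 2, and 2 lower in place of 1 with quantile normalization or median centring. Leaving out 1 replicate gave 0 to 1 higher for compound B against untreated and against compound C in H2009, and 1 to 2 higher and 0 to 1 lower between the untreated lines. Of the 30 member calls in the unpaired or paired fit, 0 changed sign under the other scalings, filters and pseudocounts. Leaving out 1 library in the unpaired fit, which also breaks a replicate pair, turned the sign of 0 of the 6 unpaired calls and of 4 of the 24 that passed in the paired fit only, all for siBL1 in H596: SDF2L1 (0.17 at its highest, in place of -0.41), CALR (-0.14 at its lowest, in place of 0.20), HSP90B1 (-0.14, in place of 0.11) and HERPUD1 (-0.06, in place of 0.14). For DNAJB9, DNAJC3, CALR and XBP1 with siBL1 in H2009, the values were nearest to 0 without siBL1 replicate 2 and farthest without siBL1 replicate 1. They were 0.22 and 1.34 for DNAJB9, 0.29 and 0.90 for DNAJC3, -0.25 and -1.57 for CALR and -0.09 and -0.95 for XBP1. HSPA5 did not follow this order and ranged from -0.79 to -0.55, both ends without an siNT library. With 2 libraries per group and unknown depth, small differences of low genes such as SDF2L1 are least certain.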

Other observations

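Over the 12 libraries of the compound table, with each line centred on its own mean, the 10 genes did not share 1 profile. Their mean ranged from -0.14 to 0.13 on the log2 scale, and single genes followed it with a Pearson r between -0.40 for HSP90B1 and 0.69 for XBP1. Pairs of the 10 genes were also described over these libraries, which share lines and treatments, with each line and replicate number centred. Over all pairs r ran from -0.92 between DNAJC3 and CALR to 0.91 between HSPA5 and CALR. For DNAJB9 it was 0.89 with DNAJC3 and -0.81 with CALR. With each line centred but not the replicate number, the tested genes outside the set closest to its mean profile were SYPL1 (r = 0.94), PLEKHF2 (0.94), INPP5B (0.93), C1orf131 (0.91) and SMAD7 (0.91). The part of the replicate number in this likeness was not tested.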
